A study of Mus musculus with 12 samples.

Results

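The genes described here are 10 transcription factors of cartilage and bone, Sox9, Sox5, Sox6, Runx1, Runx2, Runx3, Mef2c, Dlx5, Dlx6 and Sp7, of 18194 genes named on the array. They were taken by name, with every probe set that the platform annotation gives to 1 of them alone, which came to 30 of 45101 probe sets for 9 of the 10 genes. No probe set was annotated to Runx2 alone in the table used here, so that its RNA was not analysed. RNA came from primary chondrocytes of the tibiae, femurs and humeri of CD1 mouse embryos at embryonic day 15.5, grown as monolayers with fetal bovine serum, ascorbic acid and beta-glycerophosphate. The 4 groups were 100 nM dexamethasone (DEX, a synthetic glucocorticoid) for 6 hrs, its DMSO vehicle for 6 hrs, DEX for 24 hrs and vehicle for 24 hrs, with 3 arrays each, numbered 1, 2 and 4. Independent cell isolations are described for the replicates and no sort of the digested cells is named, so cells of the perichondrium, muscle or blood could be among them. Same-numbered DEX and vehicle arrays of 1 time are called a pair here, of which there were 6.

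SOX9 is a high mobility group factor that switches on the collagens and proteoglycans of cartilage, and SOX5 and SOX6 sit beside it on the same enhancers. RUNX factors bind DNA with their partner CBFB. RUNX2, with RUNX3, drives chondrocytes into hypertrophy and is needed for osteoblasts, while RUNX1 is best known from blood cells and is also found in the perichondrium and in early cartilage. MEF2C, a MADS-box factor known from muscle, also promotes hypertrophy, DLX5 and DLX6 are homeodomain factors that promote it too, and SP7 (osterix) acts downstream of RUNX2 in osteoblasts and hypertrophic cells.

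The members lie apart in the genome of build GRCm38.p6, except Dlx5 and Dlx6, which are neighbours on chromosome 6 (6877801 to 6882068 and 6863334 to 6867970). Runx1 lies on chromosome 16 (92601466 to 92826074), Runx2 on chromosome 17 (44495987 to 44814797) and Runx3 on chromosome 4 (135120645 to 135177990). RefSeq promoters of that build, 250 bases before to 50 after a start site, were available for 6 of the members, 15 promoters in all. The farthest upstream promoters of Runx1 (chr16:92826025-92826324, minus strand), Runx2 (chr17:44814578-44814877, minus strand) and Runx3 (chr4:135120395-135120694, plus strand) are shown because all 3 genes carry the same stretch there. Capitals mark the RUNX core motif TGTGGT, which is read on the opposite strand as ACCACA.
Runx1 upstream promoter: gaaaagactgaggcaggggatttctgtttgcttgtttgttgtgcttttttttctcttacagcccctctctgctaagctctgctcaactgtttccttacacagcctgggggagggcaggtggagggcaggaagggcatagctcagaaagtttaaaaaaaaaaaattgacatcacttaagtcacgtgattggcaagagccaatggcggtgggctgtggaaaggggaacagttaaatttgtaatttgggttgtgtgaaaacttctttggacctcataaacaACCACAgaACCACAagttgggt
Runx2 promoter: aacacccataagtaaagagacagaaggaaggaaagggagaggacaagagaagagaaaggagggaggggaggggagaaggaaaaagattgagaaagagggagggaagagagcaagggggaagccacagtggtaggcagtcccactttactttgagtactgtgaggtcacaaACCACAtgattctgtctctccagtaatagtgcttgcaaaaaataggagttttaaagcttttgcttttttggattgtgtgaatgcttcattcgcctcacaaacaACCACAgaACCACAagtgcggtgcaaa
Runx3 upstream promoter: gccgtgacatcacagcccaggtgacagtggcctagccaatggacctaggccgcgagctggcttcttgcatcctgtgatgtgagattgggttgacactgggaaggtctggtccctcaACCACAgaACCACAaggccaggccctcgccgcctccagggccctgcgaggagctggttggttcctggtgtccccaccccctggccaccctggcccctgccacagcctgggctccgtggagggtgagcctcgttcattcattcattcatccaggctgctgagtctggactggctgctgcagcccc
In each of the 3, a pair of RUNX motifs with first bases 8 apart forms the stretch ACCACAGAACCACA. It begins 29 bases after the start site in Runx1, 24 after it in Runx2 and 134 before it in Runx3. A search of both strands found TGTGGT in 16.8% of 32851 promoters of the same length, and 2 matches on 1 strand at that spacing in 7 of them (0.0213%), which include these 3. The spacing was chosen after the promoters were read. The second Runx1 promoter (chr16:92697280-92697579, minus strand, 69.0% G and C) is shown against the first, since it holds no RUNX motif and no capitals.
Runx1 second promoter: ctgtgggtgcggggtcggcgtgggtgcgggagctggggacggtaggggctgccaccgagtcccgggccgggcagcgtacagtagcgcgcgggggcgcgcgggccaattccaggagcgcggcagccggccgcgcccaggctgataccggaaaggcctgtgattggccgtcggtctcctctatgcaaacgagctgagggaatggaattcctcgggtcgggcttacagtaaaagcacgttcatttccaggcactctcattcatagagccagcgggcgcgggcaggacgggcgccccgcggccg
DEX acts through the glucocorticoid receptor, whose binding site is built from a pair of half-sites, TGTTCT and its reverse complement, with a gap of 3 bases. The pair was in none of the 15 member promoters and in 3 of 32851 promoters (0.00913%). A single TGTTCT was in none of the 5 RUNX promoters, in 2 of the 3 of Mef2c, in 1 of the 6 of Sox6 and in that of Sox5, against 19.0% of all promoters. The Mef2c promoters that hold it (chr13:83503784-83504083 and chr13:83573357-83573656, both plus strand) are shown with that half-site in capitals.
Mef2c promoter 1: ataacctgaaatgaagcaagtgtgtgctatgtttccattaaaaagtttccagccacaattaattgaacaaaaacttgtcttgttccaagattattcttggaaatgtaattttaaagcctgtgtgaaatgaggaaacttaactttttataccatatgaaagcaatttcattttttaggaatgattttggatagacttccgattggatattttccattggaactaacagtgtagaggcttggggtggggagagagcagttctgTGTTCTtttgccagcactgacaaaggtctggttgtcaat
Mef2c promoter 3: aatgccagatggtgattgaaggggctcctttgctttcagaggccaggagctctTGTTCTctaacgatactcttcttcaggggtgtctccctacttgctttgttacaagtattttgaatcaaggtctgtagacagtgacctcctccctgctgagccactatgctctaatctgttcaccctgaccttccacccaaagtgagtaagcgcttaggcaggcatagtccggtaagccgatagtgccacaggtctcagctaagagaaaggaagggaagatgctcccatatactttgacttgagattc
A match is a run of letters and not a site shown to be bound, and which start site each probe set reports on is not given in the sources used here.

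Intensities are linear GC-RMA values as deposited, and their median per array lay between 25.7 and 39.1. Of the 30 probe sets, 25 for 8 genes reached a mean of 50 in at least 1 group, the threshold after the paper's methods, and were tested among 20897. The single probe set of Dlx6 stayed below it, as did 1 of 3 for Sox9, 2 of 7 for Sox5 and 1 of 6 for Runx1. Of the 25, 19 reached 50 in every group. Runx1 probe sets 1422864_at, 1422865_at and 1427650_a_at and Sox5 probe set 1452511_at reached it in vehicle groups only, and Runx1 1452531_at and Runx3 1421467_at in DEX groups only, so these 6 were kept by the side on which they were higher. Arrays were hybridized on 4 days, each with as many DEX as vehicle arrays, and each day held arrays of 1 time only. Time and day cannot be told apart, and levels at 24 and 6 hrs were not tested against each other. The 4 arrays of day 3 (replicates 1 and 2 at 6 hrs) stood apart. Their 3′ minus 5′ log2 intensity of Gapdh, a sign of RNA integrity, was 0.49 to 0.74, against -0.33 to -0.22 on the other 8.

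Tests compared DEX with vehicle on log2 intensities with limma over all 12 arrays, with p adjusted (Benjamini-Hochberg) across the 20897 probe sets. Log2 fold changes are DEX minus vehicle, and SE is the moderated standard error. With the groups alone in the fit, 0 of 25 member probe sets passed an adjusted p of 0.05 at 6 hrs or 24 hrs, over both times, or when the DEX effects at 24 and 6 hrs were set against each other. Among all probe sets tested, 0.225% passed at 6 hrs, 0.287% at 24 hrs, 0.747% over both times and 0% for the difference. At an unadjusted p under 0.05 the member counts were 1, 2, 2 and 0, and the unequal-variance test named in the methods called 0 of 25 after adjustment in the first 3 of these comparisons.

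DEX and vehicle arrays of 1 number deviated together, so the numbers were taken as pairs. With the pairs as a block, 2 member probe sets passed at 6 hrs, 3 at 24 hrs, 3 over both times and 0 for the difference, where 0.904%, 2.15%, 3.2% and 0.00479% of all probe sets passed. With hybridization day as the block the counts were 1, 1, 1 and 0, against 0.948%, 2.18%, 2.87% and 0% of all. Passing with a block were 3 probe sets of Runx1, which fell, and 1 each of Sox6 and Mef2c, which rose at 24 hrs. The 3 of Runx1 had reached a mean of 50 with vehicle only, so the filter itself favoured a fall in them. The median log2 fold change of the 25 was 0.02 at 6 hrs and 0.23 at 24 hrs, and that of all probe sets was -0.01 and -0.03. At 24 hrs 20 of 25 lay above 0, against 45.1% of all. The 25 report 8 genes on the same arrays, so they are not separate observations. The filter had kept 2 of them through DEX groups only and 4 through vehicle groups only. The median SE was 0.34 for the members and 0.26 for all probe sets.

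**Figure D1:**
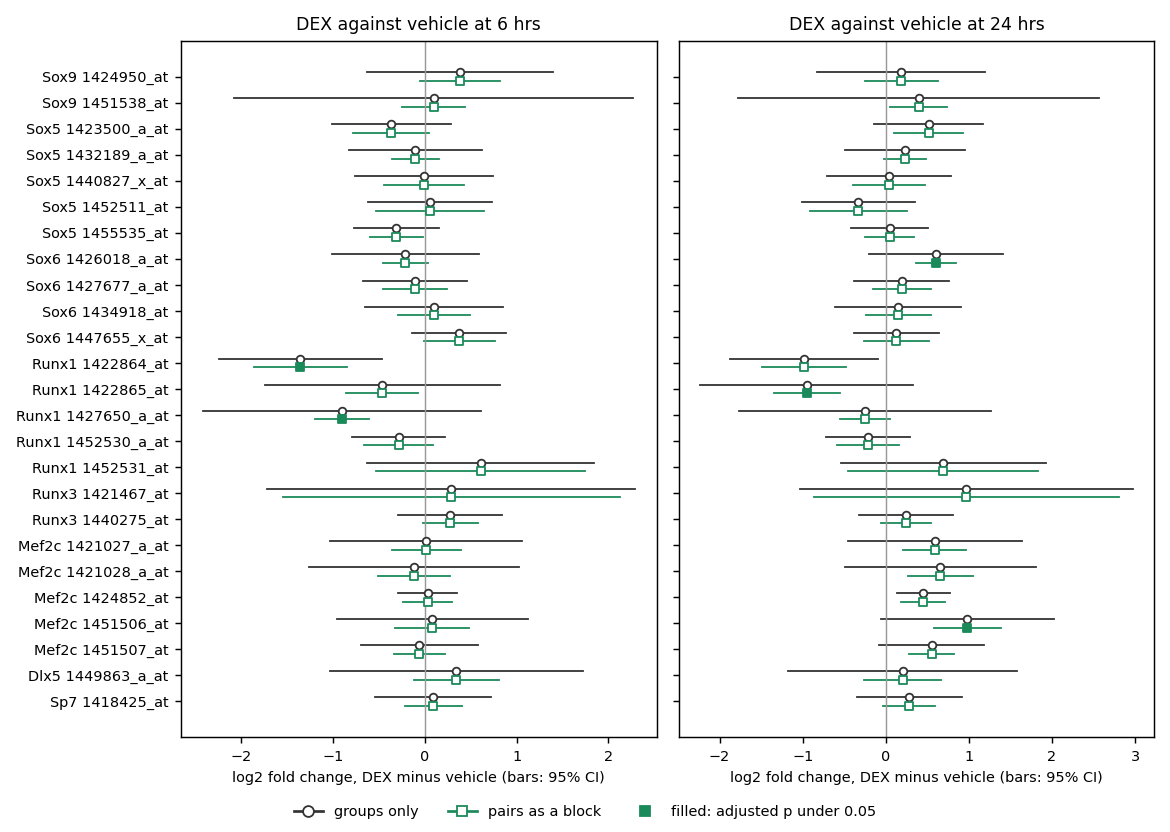
Log2 fold change, DEX minus vehicle, of the 25 tested member probe sets at 6 hrs (left) and 24 hrs (right), with 95% confidence intervals, for the fit with groups only and the fit with pairs as a block; filled markers passed an adjusted p of 0.05. Filled markers appear with the block only, for Runx1 at 6 hrs and for Sox6, Runx1 and Mef2c at 24 hrs.

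Runx1 had the lowest fold changes of the members at 6 and 24 hrs, in probe sets that reached a mean of 50 with vehicle only. Its probe set 1422864_at had intensities of 41.8, 63.5 and 19.2 with DEX at 6 hrs (replicates 1, 2 and 4), against 104.8, 115.7 and 70.2 with vehicle. At 24 hrs it had 31.5, 22.4 and 35.3 with DEX, against 79.6, 47.4 and 51.4 with vehicle. The groups did not overlap at either time, and DEX was the lower array in 6 of 6 pairs. At 6 hrs the log2 fold change was -1.35 (SE 0.40, adjusted p = 0.670), where vehicle was 2.56 times DEX. At 24 hrs it was -0.99 (SE 0.40, adjusted p = 0.706). Over both times it was -1.17 (SE 0.28, adjusted p = 0.138), and with pairs as a block the adjusted p was 0.0445 at 6 hrs and 0.0695 at 24 hrs, and 0.0088 for both times together. With the hybridization day as block the adjusted p was 0.0260, 0.0635 and 0.0037. Over both times the call with pairs as a block stayed past the threshold when any of the 6 pairs was left out (adjusted p 0.0131 to 0.0422), while at 6 hrs it was lost without any 1 of the 6. Without the 4 arrays of day 3, 1 DEX and 1 vehicle array (replicate 4) were left at 6 hrs. The log2 fold change over both times was then -1.43. With days 2 and 3 alone, which carry 4 arrays each, it was -1.02 (adjusted p = 0.0619).

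A second Runx1 probe set, 1422865_at, had 13.0, 27.4 and 58.7 with DEX at 6 hrs, against 22.7, 26.7 and 90.8 with vehicle. With 24 hrs of treatment it had 60.3, 43.0 and 40.2 with DEX, against 119.7, 88.1 and 71.5 with vehicle. The 24 hrs groups did not overlap, while at 6 hrs replicate 2 was about level. Its log2 fold change at 24 hrs was -0.95 (SE 0.58, adjusted p = 0.979), with an adjusted p of 0.0374 with pairs as a block and 0.151 with day as a block. Over both times it was -0.71 (SE 0.41, adjusted p = 1.00, and 0.0234 with pairs as a block). With 1 pair left out, the calls with pairs as a block stayed in 2 of 6 cases at 24 hrs (adjusted p 0.0220 to 0.180) and in 1 of 6 over both times (0.0110 to 0.0939).

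The third, 1427650_a_at, had 5.4, 7.2 and 33.1 with DEX at 6 hrs, against 10.6, 15.4 and 52.1 with vehicle. At 24 hrs the values were 40.2, 56.3 and 33.3 with DEX, against 53.3, 63.9 and 37.3 with vehicle. DEX was lower in 6 of 6 pairs, although the groups overlapped at both times with pairs at different levels. At 6 hrs the log2 fold change was -0.90 (SE 0.69, adjusted p = 1.00, and 0.0275 with pairs as a block), and day as a block gave an adjusted p of 0.0942. Leaving out the 6 hrs pair of replicate 4 kept this probe set past the threshold over both times with pairs as a block, and it was lost without any other pair. At 6 hrs its call with pairs as a block was lost when any 1 of the 6 pairs was left out (adjusted p 0.0554 to 0.147), and leaving out 1 array moved the log2 fold change between -1.71 and -0.23.

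The other tested Runx1 probe sets showed no common direction. 1452530_a_at had 45.0, 70.7 and 67.0 with DEX at 6 hrs, against 59.2, 72.6 and 89.8 with vehicle. After 24 hrs the values were 82.3, 81.2 and 59.3 with DEX, against 87.1, 77.8 and 91.0 with vehicle. Its log2 fold change over both times was -0.25 (SE 0.16, adjusted p = 1.00). Opposite to these, 1452531_at had 39.5, 59.2 and 70.7 with DEX at 6 hrs, against 38.4, 34.5 and 35.2 with vehicle, so that DEX was above vehicle without overlap. The 24 hrs values were 77.0, 63.2 and 32.8 with DEX, against 72.1, 11.9 and 44.4 with vehicle, and the groups overlapped. Its fold change on the log2 scale was 0.65 over both times (SE 0.40, adjusted p = 1.00). The probe set not tested, 1440878_at, had 26.5, 45.0 and 21.1 with DEX at 6 hrs, against 56.3, 50.1 and 38.5 with vehicle, and 17.7, 13.0 and 19.3 with DEX at 24 hrs, against 37.9, 17.6 and 43.1 with vehicle, so that it was lower in 6 of 6 pairs at low intensity. Among all probe sets tested, 4.71% were lower with DEX in 6 of 6 pairs.

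**Figure D2:**
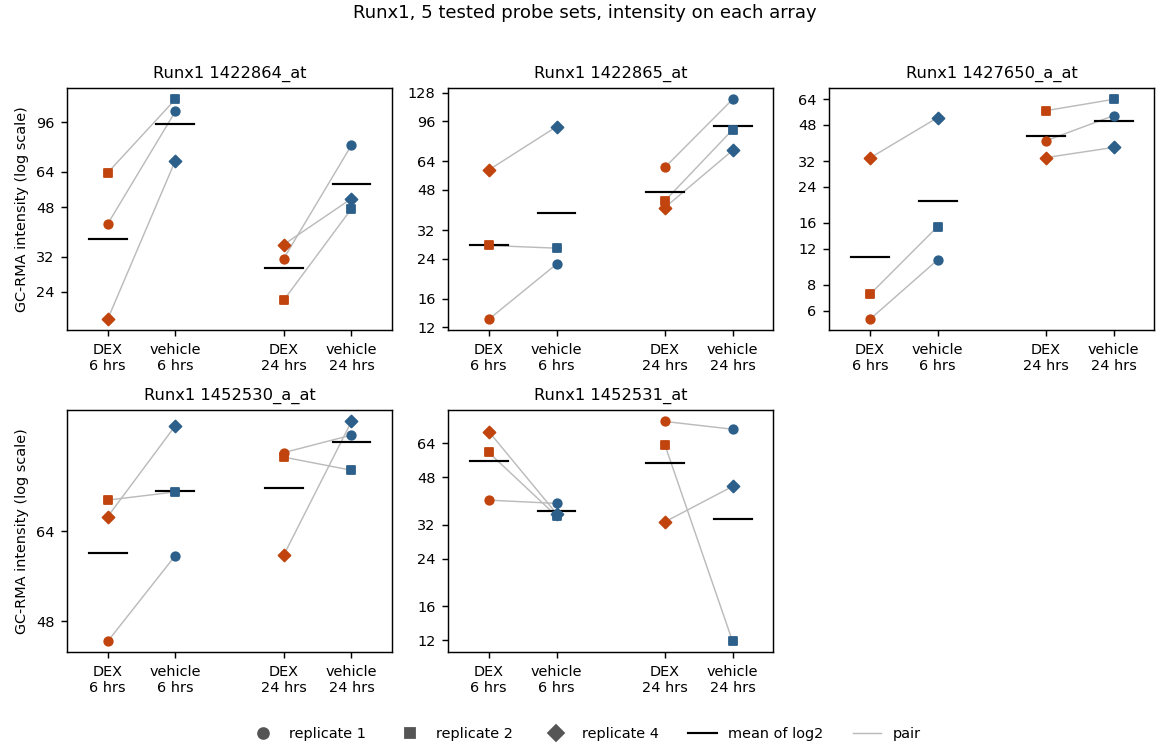
Intensity (log axis) of the 5 tested Runx1 probe sets on each array, DEX beside vehicle at 6 and at 24 hrs; grey lines join pairs, marker shapes are replicates and black bars are means of log2. DEX lies below vehicle in every pair for 1422864_at and 1427650_a_at, and above it at 6 hrs for 1452531_at.

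RUNX1 is also a blood cell factor, so macrophage and blood cell markers stand beside it. 7 of 13 with a named probe set were tested. Of these 7, 0 had a log2 fold change above 0 over both times, where 44.8% of all probe sets did, and their median was -0.20. One of the 7, Fcer1g, reached a mean of 50 with vehicle only. The summed intensity of all 13, tested or not, was 809.3 to 942.8 with DEX at 6 hrs, against 776.8 to 1050 with vehicle. At 24 hrs it was 687.6 to 875.6 with DEX, against 854.4 to 1087 with vehicle. The part of these markers in the Runx1 values was not tested. In bulk RNA, fewer cells of a type and less RNA per cell cannot be told apart.

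Runx3 had 2 tested probe sets, both above 0. Of these, 1421467_at had reached a mean of 50 with DEX only, so the filter itself favoured a rise in it. 1440275_at had 61.9, 78.1 and 130.8 with DEX at 6 hrs, against 60.0, 65.7 and 90.5 with vehicle. At 24 hrs it had 134.9, 147.9 and 123.1 with DEX, against 112.5, 116.0 and 113.7 with vehicle. DEX was the higher array in 6 of 6 pairs, as for 4.29% of all probe sets, and the 24 hrs groups did not overlap. The log2 fold change over both times was 0.26 (SE 0.18, adjusted p = 1.00, and 0.233 with pairs as a block). 1421467_at had 5.0, 28.5 and 37.3 with DEX at 6 hrs, against 24.5, 4.7 and 25.3 with vehicle, and 83.8, 44.3 and 87.9 with DEX at 24 hrs, against 70.0, 12.01 and 52.0 with vehicle. The arrays varied widely at this intensity, and the 95% interval of its log2 fold change at 24 hrs ran from -1.03 to 2.97.

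Mef2c had fold changes above 0 in all its probe sets at 24 hrs. Each of its 5 probe sets was higher with DEX in 3 of 3 pairs at 24 hrs, a pattern of 17.7% of all probe sets, with log2 fold changes of 0.45 to 0.98, while at 6 hrs they lay between -0.12 and 0.08. The 5 probe sets report 1 gene on the same arrays and are not replicates. The one with the smallest SE, 1424852_at, had 252.4, 232.0 and 273.9 with DEX at 24 hrs, against 175.4, 178.9 and 199.95 with vehicle. At 6 hrs it had 253.0, 236.6 and 230.8 with DEX, against 225.6, 263.8 and 217.3 with vehicle. The groups were apart at 24 hrs and mixed at 6 hrs. Its log2 fold change at 24 hrs was 0.45 (SE 0.15, adjusted p = 0.491), with an unadjusted p of 0.0099 and an adjusted p of 0.100 with pairs as a block.

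The widest Mef2c difference was that of 1451506_at, with 173.2, 93.2 and 178.2 with DEX at 24 hrs, against 80.6, 43.1 and 108.2 with vehicle. The groups overlapped, since replicate 2 was the lowest on both sides. The log2 fold change was 0.98 (SE 0.47, adjusted p = 0.841), a 1.97-fold level, and with pairs as a block the adjusted p was 0.0364, and 0.0931 with day as a block. That call with pairs as a block stayed without the 6 hrs pair of replicate 1 (0.0261 was the lowest adjusted p) and was lost without any of the other 5 pairs, up to 0.181. Without the 4 arrays of day 3 it was 0.0419 with pairs as a block. At 6 hrs the same probe set had 47.9, 60.6 and 94.1 with DEX, against 32.6, 69.0 and 102.4 with vehicle.

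1421027_a_at had 290.3, 272.0 and 420.2 with DEX at 24 hrs, against 194.9, 226.7 and 221.6 with vehicle (log2 fold change 0.59, SE 0.47). 1421028_a_at had 126.1, 108.1 and 185.8 with DEX, against 73.7, 95.2 and 91.9 with vehicle (0.66, SE 0.52). Both showed no overlap at 24 hrs, and their adjusted p was 1.00, or 0.126 and 0.109 with pairs as a block. 1451507_at had 178.1, 130.6 and 194.0 with DEX at 24 hrs, against 113.9, 94.9 and 132.9 with vehicle, with a log2 fold change of 0.55 (SE 0.29) and some overlap. The difference of the DEX effect between 24 and 6 hrs lay between 0.42 and 0.90 on the log2 scale for the 5 probe sets and did not pass for any of them (adjusted p = 1.00, and 0.288 to 0.371 with pairs as a block).

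**Figure D3:**
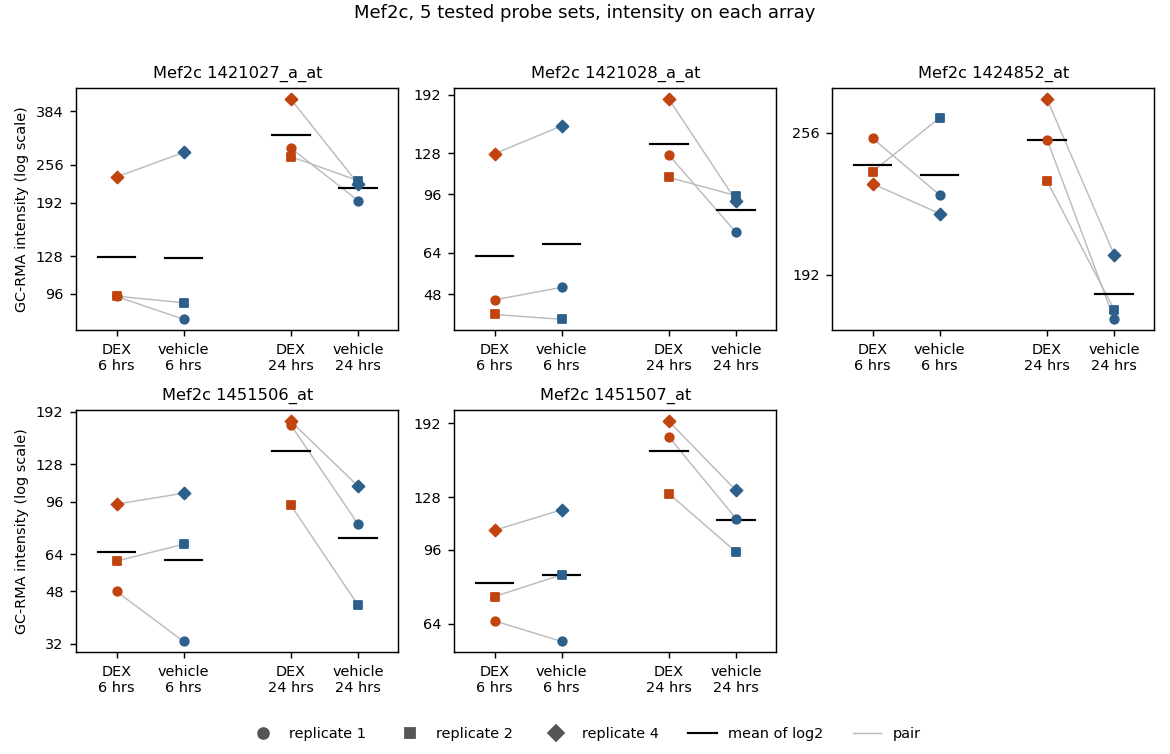
Intensity (log axis) of the 5 tested Mef2c probe sets on each array, DEX beside vehicle at 6 and at 24 hrs; grey lines join pairs, marker shapes are replicates and black bars are means of log2. At 24 hrs DEX lies above vehicle in each pair of every probe set, and at 6 hrs the pairs run both ways.

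MEF2C is known from muscle too. Of the skeletal muscle markers 11 of 14 were tested. At 24 hrs 1 of 11 lay above 0, where 45.1% of all probe sets did, and their median log2 fold change was -0.44. Tnni1 and Des among them reached a mean of 50 with vehicle only, and the median of the other 9 was -0.40. The summed intensity of all 14, tested or not, was 1197 to 1564 with DEX at 6 hrs, against 1157 to 1750 with vehicle. At 24 hrs it was 716.6 to 1634 with DEX, against 804.9 to 2515 with vehicle. Of the osteoblast and perichondrial markers 7 of 8 with a named probe set were tested, and 5 of these lay above 0 at 24 hrs with a median of 0.92. The summed intensity of all 8, tested or not, was 10900 to 16690 with DEX at 24 hrs, against 10820 to 11740 with vehicle. Dmp1 and Ifitm5, both known from bone cells, reached a mean of 50 with DEX only, at 24 hrs (83.9 and 79.5 with DEX, against 11.6 and 33.8 with vehicle). Without these, 3 of 5 lay above 0 with a median of 0.64. At 6 hrs the sum of all 8 was 7261 to 14420 with DEX, against 6551 to 13560 with vehicle. The part of either list of markers in the Mef2c values was not tested.

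The Sox9 difference between DEX and vehicle was not larger than the spread of the arrays with groups only. Probe set 1424950_at had 383.7, 310.7 and 1165 with DEX at 6 hrs, against 345.6, 280.4 and 645.2 with vehicle. With 24 hrs of treatment it had 833.0, 1227 and 1369 with DEX, against 947.1, 1036 and 970.2 with vehicle. DEX was the higher array in 5 of 6 pairs, and the log2 fold change was 0.38 (SE 0.46) at 6 hrs and 0.19 (SE 0.46) at 24 hrs, both with an adjusted p of 1.00. Its direction at 6 hrs turned when the DEX array of replicate 4 was left out, to -0.20.

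The second Sox9 probe set, 1451538_at, had 85.2, 105.1 and 900.5 with DEX at 6 hrs, against 96.2, 74.0 and 924.1 with vehicle. After 24 hrs the values were 861.7, 1312 and 974.7 with DEX, against 666.9, 1009 and 716.1 with vehicle. Within the 6 hrs arrays, the pair of replicate 4, hybridized on day 4, stood 10.2-fold above the 4 arrays of day 3 on the mean of log2, while DEX and vehicle of each pair lay close. The 95% interval of its log2 fold change at 24 hrs ran from -1.77 to 2.57 with groups only. With pairs as a block the log2 fold change of 0.40 had an SE of 0.15 and an adjusted p of 0.233. The day 3 arrays are those with the high 3′ to 5′ ratio of Gapdh, and the part of RNA integrity in these levels was not tested. Another Sox9 probe set, 1433889_at, was below 50 in every group.

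The step between the days was seen in several other members, in both directions. Over the 25 tested probe sets, day 4 minus day 3 among the 6 hrs arrays ran from -1.04 to 3.35 on the log2 scale, with 8 above 1 and 1 below -1. It was 4.00-fold for Dlx5, 4.65-fold for Runx1 1427650_a_at and 3.39-fold for 1422865_at, but 0.487-fold for Runx1 1422864_at. The pairs share a day, so a step of the same log2 size in DEX and vehicle is in the spread between replicates and not in the difference within a pair. Whether the day also changed the difference within a pair was not tested.

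Sox5 and Sox6, the partners of SOX9, had 5 and 4 tested probe sets. Of Sox5, 1432189_a_at had 140.9, 148.2 and 311.6 with DEX at 6 hrs, against 156.7, 170.9 and 300.4 with vehicle. The 24 hrs values were 322.9, 437.8 and 359.7 with DEX, against 284.6, 360.6 and 306.0 with vehicle. The 5 Sox5 probe sets had log2 fold changes of -0.36 to 0.06 at 6 hrs and of -0.33 to 0.51 at 24 hrs, and each had an adjusted p of at least 0.941. 1455535_at was the one without overlap at 6 hrs, with 109.2, 94.9 and 116.7 with DEX, against 143.3, 131.1 and 122.5 with vehicle (log2 fold change -0.31, SE 0.21). At 24 hrs it had 136.2, 222.1 and 151.5 with DEX, against 146.8, 198.5 and 143.3 with vehicle. 1440827_x_at had 122.7, 87.5 and 61.2 with DEX at 6 hrs, against 105.8, 110.2 and 57.2 with vehicle, and 92.3, 110.1 and 100.3 with DEX at 24 hrs, against 90.7, 145.2 and 71.6 with vehicle. Its groups overlapped at both times, and the x marks probes that match other sequences too. 1452511_at, kept through its vehicle level at 24 hrs, had 55.6, 34.7 and 36.4 with DEX there, against 61.3, 57.0 and 39.9 with vehicle. The Sox5 probe sets not tested were 1432190_at, with group means of 15.2 with DEX and 6.11 with vehicle at 6 hrs and 6.49 with DEX and 6.25 with vehicle at 24 hrs, and 1459261_at, with 4.92 (DEX) and 4.72 (vehicle) at 6 hrs and 17.5 (DEX) and 16.7 (vehicle) after 24 hrs. 1423500_a_at had a log2 fold change of -0.36 (SE 0.30) at 6 hrs and 0.51 (SE 0.30) at 24 hrs.

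Sox6 probe set 1426018_a_at was the only one of the 25 with opposite signs in all pairs at the 2 times, a pattern of 5.87% of all probe sets. It had 45.4, 45.8 and 92.7 with DEX at 6 hrs, against 51.2, 55.8 and 104.9 with vehicle. With 24 hrs of treatment it had 127.8, 220.3 and 152.5 with DEX, against 83.6, 137.2 and 106.5 with vehicle. The groups overlapped at both times. The log2 fold change at 24 hrs was 0.60 (SE 0.36, adjusted p = 0.971), with an adjusted p of 0.0344 with pairs and 0.0458 with day as a block. Without the 4 arrays of day 3 the adjusted p with pairs as a block was 0.0906, and it was over 0.05 when any 1 pair was left out.

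The other 3 Sox6 probe sets did not pass in any fit. 1447655_x_at had 411.5, 419.5 and 376.6 with DEX at 6 hrs, against 277.6, 322.2 and 333.2 with vehicle, without overlap (log2 fold change 0.38, SE 0.23, adjusted p = 1.00). After 24 hrs the values were 560.0, 680.6 and 504.9 with DEX, against 373.6, 738.6 and 534.3 with vehicle. The x in its name marks a probe set of the array's maker with probes that match other sequences too, so it may not report Sox6 alone. 1427677_a_at and 1434918_at had log2 fold changes over both times of 0.04 (SE 0.18) and 0.12 (SE 0.24).

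**Figure D4:**
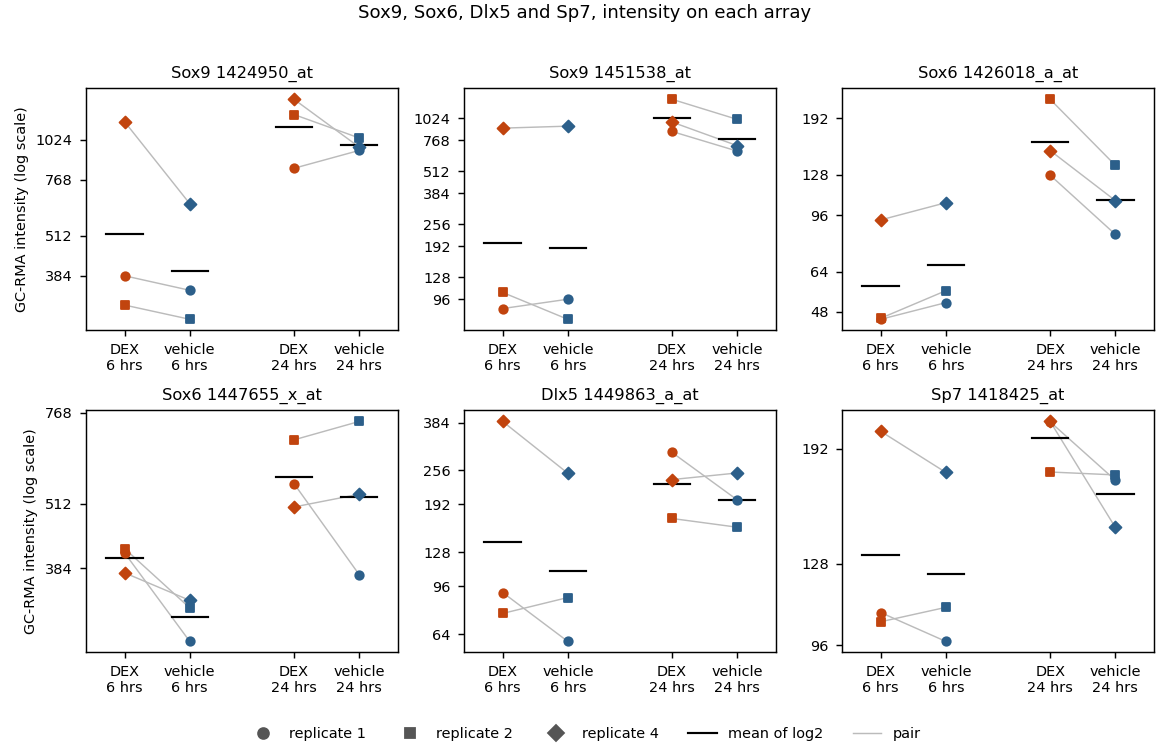
Intensity (log axis) on each array of 2 Sox9 probe sets, 2 Sox6 probe sets and those of Dlx5 and Sp7, DEX beside vehicle at 6 and at 24 hrs; grey lines join pairs, marker shapes are replicates and black bars are means of log2. At 6 hrs replicate 4 lies above replicates 1 and 2 in both Sox9 probe sets, Sox6 1426018_a_at, Dlx5 and Sp7, and for Sox6 1426018_a_at the pairs slope one way at 6 hrs and the other at 24 hrs.

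Dlx5 and Sp7, with 1 tested probe set each, did not pass in any fit. Dlx5 1449863_a_at had 91.1, 76.3 and 387.5 with DEX at 6 hrs, against 60.2, 87.3 and 249.9 with vehicle. The 24 hrs values were 297.9, 170.4 and 236.9 with DEX, against 199.4, 158.2 and 250.5 with vehicle. DEX was higher in 2 of 3 pairs at each time, and the log2 fold change over both times was 0.27 (SE 0.44, adjusted p = 1.00). Dlx6 1452507_at had 12.8, 15.0 and 18.1 with DEX at 6 hrs, against 7.7, 11.2 and 15.5 with vehicle, and 9.6, 10.4 and 23.1 with DEX at 24 hrs, against 13.6, 11.3 and 12.02 with vehicle, intensities at which it was not tested.

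Sp7 1418425_at had 107.8, 104.4 and 204.1 with DEX at 6 hrs, against 97.4, 109.8 and 176.5 with vehicle. At 24 hrs it had 211.0, 176.8 and 211.3 with DEX, against 171.8, 175.0 and 145.5 with vehicle. The 24 hrs groups did not overlap, by a narrow margin in replicate 2. The log2 fold change at 24 hrs was 0.28 (SE 0.29, adjusted p = 1.00, and 0.336 with pairs as a block). The osteoblast and perichondrial markers given beside Mef2c had a median above 0 there, and their part in the Sp7 values was not tested.

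Groups did not overlap, with DEX lower, for 2 of 25 member probe sets at 6 hrs and 2 at 24 hrs, against 2.96% and 10.9% of all probe sets. With DEX higher the counts were 2 at 6 hrs and 5 at 24 hrs, against 3.04% and 8.45%.

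Genes that act with these factors or downstream of them were followed in lists, each gene by its tested probe set with the highest mean. The lists were written with earlier results of these data known. At 6 hrs and at 24 hrs, 0 genes of the 7 lists passed with groups only. Over both times 2 passed, where 0.747% of all probe sets did. Foxa2, a forkhead factor of hypertrophic cartilage, rose by 0.98 on the log2 scale (SE 0.14, adjusted p = 0.00753), with 152.2 ± 32.4 with DEX at 24 hrs, against 78.4 ± 12 with vehicle (SD, n = 3 each). Chad, a leucine-rich repeat protein of the cartilage matrix that binds collagen, rose by 0.97 (SE 0.16, adjusted p = 0.0170), with 226.2 ± 53.1 with DEX at 24 hrs, against 115.1 ± 26.9 with vehicle. Both were higher in 6 of 6 pairs. Foxa2 was 1 of 34 tested genes of other skeletal transcription factors and Chad 1 of 20 of SOX9 target genes of cartilage. Of those 34, 11 lay above 0 over both times, where 44.8% of all probe sets did, and their median was -0.139.

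Of the 20 SOX9 target genes, 20 had a log2 fold change above 0 over both times, with a median of 0.19. For all probe sets the median was -0.02 and 44.8% lay above 0. Since earlier results were known when the genes were listed, this count is a description and not an independent test. The most abundant of them differed little. Col2a1, the main collagen of cartilage, had 0.01 over both times, Col9a1 0.07, Col11a1 0.11 and Cnmd, which keeps vessels out of cartilage, 0.17, each with an adjusted p of 1.00. With pairs as a block Chad and Ucma, a secreted protein of cartilage, rose over both times (adjusted p = 0.00111 and 0.0317), and Ucma had 1036 ± 159 with DEX at 24 hrs, against 493.4 ± 244 with vehicle. Of all probe sets 3.2% passed over both times in that fit. Ucma was named after its values were seen. The 10 chondrocyte markers, all of which are among these 20 genes and 9 of which lay above 0 at 24 hrs, had a summed intensity of 31790 to 39810 with DEX at 24 hrs, against 28290 to 41020 with vehicle, and 25070 to 46560 with DEX at 6 hrs, against 24470 to 41800 with vehicle.

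Of the 16 tested target genes of RUNX2, MEF2C and SP7, 11 lay above 0 at 24 hrs, where 45.1% of all probe sets did. The median of the 16 was 0.47, and 0 passed with groups only. Col1a1, Col1a2, Ibsp, Alpl, Dmp1 and Ifitm5 are also among the osteoblast and perichondrial markers given above, by the same probe sets, so the 2 lists are not separate observations. Dmp1 and Ifitm5, kept through their DEX level at 24 hrs, are among them, and without both 9 of 14 lay above 0 with a median of 0.27. With pairs as a block 3 rose and 1 fell at 24 hrs, where 2.15% of all probe sets passed. Those that rose were Pth1r, the receptor for parathyroid hormone and its related peptide (log2 fold change 0.89, adjusted p = 0.0196), Alpl, the alkaline phosphatase of mineralizing cells (0.64, 0.0409), and Panx3, a channel protein of hypertrophic cells (0.60, 0.0385). Tnfsf11, the cytokine RANKL that makes osteoclasts mature, fell by 1.54 at 24 hrs and by 1.33 at 6 hrs (adjusted p = 0.00500 and 0.0131 with pairs as a block), with 38.6 ± 15.2 with DEX at 24 hrs, against 113.0 ± 45.5 with vehicle. Over both times Ifitm5 rose by 1.21 (adjusted p = 0.0325 with pairs as a block). These were named after their values were seen. The most abundant of the list were Col1a2 (0.01 over both times), Mmp13, a collagenase (0.04), Ibsp, a bone sialoprotein (0.62, SE 0.17, adjusted p = 0.231), and Col1a1 (-0.09).

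Of 7 other SOX factors tested, 2 lay above 0 at 24 hrs, where 45.1% of all probe sets did, and their median was -0.63. Sox13 among them reached a mean of 50 with DEX only, at 24 hrs (58.8, against 47.2 with vehicle). Sox4 and Sox11, which are close relatives of each other known from progenitor cells, were lower in 6 of 6 pairs. Their log2 fold changes over both times were -0.55 (SE 0.20, adjusted p = 0.608) and -0.56 (SE 0.15, adjusted p = 0.237). Both passed with pairs as a block (adjusted p = 0.0218 and 0.0115), as did 3.2% of all probe sets. Sox4 had 1334 ± 58.5 with DEX at 24 hrs, against 2141 ± 295 with vehicle. Sox12 and Sox21 had -0.45 and -1.33 over both times and did not pass in either fit.

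Over both times 3.2% of all probe sets passed with pairs as a block, beside which the calls of the next lists stand. Among 23 tested RUNX partners and inhibitors the median was -0.02 over both times, and Cbfb, the common partner of the RUNX factors, had -0.02. With pairs as a block Tle2, a Groucho-type corepressor, and Twist2, a helix-loop-helix factor that holds back RUNX2, fell over both times by 0.96 and 0.64 (adjusted p = 0.00699 and 0.0260), both lower in 6 of 6 pairs and named after their values were seen. Tle2 reached a mean of 50 with vehicle at 24 hrs only (31.2 with DEX, against 52.3 with vehicle). The other abundant ones were Atf4, Snai2 and Wwtr1, at -0.02, -0.01 and -0.06. Of the 3 tested MEF2 and DLX relatives, Mef2a, Mef2d and Dlx2 had -0.04, -0.05 and 0.41, and 0 passed with or without the block. Of 14 tested SOX9 partners and regulators, Pias1, a SUMO ligase, had 0.44 and Lef1, a partner of beta-catenin, -0.39 over both times, and both passed with pairs as a block (adjusted p = 0.0479 and 0.0464), Lef1 being named after its values were seen, while Ctnnb1, Wwp2 and Crebbp had 0.03, 0.11 and 0.08. Of the other skeletal transcription factors Fosl2, an AP-1 factor, had -0.39 (adjusted p = 0.0439 with pairs as a block), and Hif1a, Foxc1 and Cebpd had -0.05, 0.31 and 0.29 and did not pass.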

How the data were processed

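RNA of 12 samples was hybridized to Affymetrix MOE 430 2.0 arrays, 3 per group. The authors ran GC-RMA in GeneSpring GX, and the values as deposited are linear intensities, which were used without further normalization. Probe sets whose mean reached 50 in 1 group or more were kept, and their log2 values, with nothing added, were fitted by limma (3.58.1, R 4.3.3) with a mean for each group and no block, followed by eBayes. The number of arrays limits the precision. Python 3.11.15, pandas 2.3.3 and matplotlib 3.10.9 made tables and figures. The fit was tested on simulated data.

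Symbols came from the platform annotation, in which 34958 probe sets had 1 symbol, 932 had several and 9211 had none listed and are unnamed here. 34754 matched a RefSeq gene (GRCm38.p6).

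The numbers were taken to pair arrays. Deviations from the group means of same-numbered DEX and vehicle arrays correlated at 0.681, 0.632 and 0.863 at 6 hrs (replicates 1, 2 and 4). At 24 hrs the values were 0.158, 0.301 and 0.220 in the same order. Pairs also share a hybridization day, and different-numbered arrays were not compared, so these values do not tell number from day. Hybridization days were read from the array description files, which were used for nothing else.

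All member probe sets are named. From each list, genes that passed with groups only and at most 4 more with the highest mean log2 intensity are named. Other genes of the lists that are named passed with pairs as a block or were kept by the filter through 1 side, and were picked once their values were known. The members and lists were chosen with earlier results of these data known. Proteins of the members were not compared here.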

Additional observations from a re-analysis of the deposited data

Results flagged for a closer look

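For Sox6 (probe set 1426018_a_at) every pair ran one way at 6 hrs and every pair the other way at 24 hrs. DEX was below vehicle in 3 of 3 pairs at 6 hrs (log2 fold change -0.21, SE 0.36) and above it in 3 of 3 pairs at 24 hrs (0.60, SE 0.36). The DEX effect at 24 minus 6 hrs was 0.82 on the log2 scale (SE 0.51, adjusted p = 1.00 with limma), and the adjusted p of this difference was 0.258 with pairs and 0.298 with hybridization day as a block. Of the 20897 probe sets tested, 1227 (5.87%) had opposite signs in all pairs of the 2 times. Among the 25 member probe sets 1 did, which is not above that share. No day held both times, so a difference between the times and one between the days cannot be told apart.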

How the results depend on the processing

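In all, 30 alternatives to the fit with groups only were run, 8 of them chosen after the data were seen (2 without the 4 arrays of hybridization day 3, 6 leaving out 1 pair each with pairs as a block). The counts of member probe sets past the threshold, 0 at each time and over both, became 2 (6 hrs), 3 (24 hrs) and 3 (both) with the replicate block and 1, 1 and 1 with the hybridization day as block. Array weights gave 1 at 24 hrs and 1 over both times, though their estimation stopped before it converged. The array weights calls were Mef2c 1424852_at at 24 hrs (0.50, adjusted p = 0.0378) and Runx1 1422864_at over both times (-0.90, 0.00957). Without day 3 and with the replicate block they became 2 at 24 hrs. There 6 hrs was left with 1 array a side, so no count over both times is given. With 1 array or pair left out they lay between 0 and 2 at 24 hrs and over both times. The difference between the times kept 0 in every alternative.

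Fold changes of the 25 tested probe sets were run under every alternative that kept them. Since 0 of the 25 had passed with groups only, there was no call of that fit to turn. One alternative asked for a mean of at least 100 in a group. The 5 Runx1 probe sets, Sox5 1452511_at and Runx3 1421467_at did not reach it and were absent from that fit. The genes of the lists were run with groups only and with the replicate block. With array weights 5 turned at 6 hrs, to 0.010 for Runx1 1422865_at, 0.013 for 1452530_a_at, -0.081 for Mef2c 1424852_at, -0.084 for Dlx5 and -0.045 for Sp7, and 1 over both times, to -0.094 for Sox5 1440827_x_at. Without day 3, 1 DEX and 1 vehicle array (replicate 4) were left at 6 hrs. The 6 hrs values then turned to 0.0525 for Sox5 1432189_a_at, 0.099 for 1440827_x_at and -0.12 for Mef2c 1451506_at. They also turned to -0.27 for Mef2c 1421027_a_at, -0.12 for Sox6 1434918_at and -0.037 for Sox9 1451538_at. Over both times the values turned to -0.092 for Sox5 1423500_a_at and 0.11 for 1452511_at. Within the days with 2 arrays a side they turned to -0.17 for Runx1 1452531_at and -0.014 for Sox5 1455535_at at 24 hrs, and to -0.19 for Sox5 1452511_at at 6 hrs. With 1 array or pair left out, 18 of 25 directions turned at 6 hrs, 6 with the 24 hrs arrays and 9 for both times together. Leaving out 1 array gave 6 hrs ranges of -0.20 to 0.75 for Sox9 1424950_at, -0.99 to 1.25 for 1451538_at, -0.47 to 0.19 for Sox5 1432189_a_at, -0.31 to 0.25 for 1440827_x_at, -0.21 to 0.39 for 1452511_at, -0.55 to 0.11 for Sox6 1426018_a_at, -0.27 to 0.041 for 1427677_a_at, -0.22 to 0.48 for 1434918_at, -1.01 to 0.16 for Runx1 1422865_at, -0.52 to 1.19 for Runx3 1421467_at, -0.028 to 0.51 for 1440275_at, -0.42 to 0.60 for Mef2c 1421027_a_at, -0.63 to 0.47 for 1421028_a_at, -0.024 to 0.12 for 1424852_at, -0.37 to 0.45 for 1451506_at, -0.32 to 0.20 for 1451507_at, -0.39 to 0.94 for Dlx5 and -0.22 to 0.35 for Sp7. The ranges at 24 hrs were -0.19 to 0.32 for Sox5 1440827_x_at, -0.16 to 0.20 for 1455535_at, -0.034 to 0.40 for Sox6 1427677_a_at, -0.033 to 0.28 for 1434918_at, -0.12 to 0.37 for 1447655_x_at and -0.060 to 1.24 for Runx1 1452531_at. Over both times they were -0.0079 to 0.47 for Sox9 1424950_at, -0.29 to 0.82 for 1451538_at, -0.038 to 0.22 for Sox5 1423500_a_at, -0.12 to 0.21 for 1432189_a_at, -0.14 to 0.16 for 1440827_x_at, -0.27 to 0.032 for 1452511_at, -0.070 to 0.15 for Sox6 1427677_a_at, -0.036 to 0.31 for 1434918_at and -0.096 to 0.57 for Dlx5. With a pair left out and the replicate block, the 6 hrs values that turned were -0.11 for Sox9 1451538_at, 0.16 for Sox5 1440827_x_at, -0.091 and -0.19 for 1452511_at, -0.091 for Sox6 1434918_at, -0.87 for Runx3 1421467_at, -0.098 and -0.00905 for Mef2c 1421027_a_at, -0.035 for 1424852_at, -0.155 for 1451506_at and 0.00010 for 1451507_at. The 24 hrs values were -0.19 for Sox5 1440827_x_at, -0.014 for 1455535_at, -0.017 for Sox6 1427677_a_at, -0.025 for 1434918_at, -0.10 for 1447655_x_at and -0.17 for Runx1 1452531_at. The values over both times were -0.0254 and -0.0126 for Sox5 1423500_a_at, -0.040, -0.011 and -0.097 for 1440827_x_at, 0.061 for 1452511_at and -0.062 for Sox6 1427677_a_at. The cause was not tested. Runx1 1422864_at stayed below 0 in all alternatives that kept it, from -1.87 to -0.83 at 6 hrs and from -1.43 to -0.87 over both times.

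Over all probe sets, 47 (6 hrs), 60 (24 hrs) and 156 (both times) passed with groups only. The counts were 189, 449 and 668 with the replicate block, 198, 455 and 600 with the day as block, and 1002, 545 and 1105 with array weights. Without a filter they were 18, 22 and 73, and with the 2-group Welch test 0, 0 and 38. With only the arrays of the time point 0 passed at 6 hrs and 163 at 24 hrs. Within day 3, 2 passed at 6 hrs. Without day 3, 163 passed at 24 hrs, and 272 with the replicate block as well. With 1 array left out they ran from 18 to 38, 16 to 88 and 90 to 156.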
